A study of Mus musculus with 8 samples.

Results

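Islets of mice that lacked Irs2 and drank sodium tungstate were set against islets of untreated wild-type mice, a comparison that shows which genes differed from the healthy state in treated mutant islets. The members are the 2 arrays whose titles name treated Irs2-/- islets and the 2 whose titles name wild-type controls, 4 of the 8 oligonucleotide arrays in the study. The remaining 4 arrays, untreated Irs2-/- and treated wild-type islets with 2 each, entered the same fit and are given beside them. All mice were male C57Bl/6, and their pancreatic islets were taken at 13 weeks of age. Treated Irs2-/- and treated wild-type mice had tungstate in their drinking water for 21 days, starting at 10 weeks, while untreated Irs2-/- and untreated wild-type mice drank distilled water over the same days. The dose is not settled here, since the design text gives 2 mg/ml and the sample labels 2 mg/dl. No source used here says whether RNA came from single or pooled mice, so the spread behind each p-value may be technical. With 2 arrays a group, their number limits the precision.

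Irs2 is an adaptor protein that links the receptors for insulin and IGF-1 to the PI3 kinase pathway. Mice without it become diabetic because insulin resistance in liver and muscle is met by beta cells that fail to expand, and they serve as a model of type 2 diabetes. Sodium tungstate is a salt that lowers blood glucose in diabetic rodents when taken by mouth. Islets hold insulin-secreting beta cells beside alpha, delta and other endocrine cells, vessels and resident macrophages, and isolated islets carry some exocrine tissue. In such bulk samples, fewer cells of a type and less RNA per cell cannot be told apart. Because genotype and treatment both differ between the groups, the share of each in a difference cannot be told apart from this contrast alone, and the other arrays are given for that reason.

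Values are log2 expression as the authors deposited it, with a single probe set for each gene. A difference of 1 is therefore 2-fold, and differences are given as log2 ± standard error (SE) from the limma fit over all 8 arrays. The threshold was an adjusted p under 0.05 over 13369 genes, and genes with a mean below log2 5.27 were not tested. Levels of different genes are not compared, since each probe set has its own brightness.

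The targeted gene followed the labels. Irs2 (chromosome 8, 10984681 to 11008929, GRCm38.p6) read 4.78 and 4.86 in treated Irs2-/- islets and 4.54 and 4.89 in untreated Irs2-/- islets, against 7.89 and 7.61 in treated and 7.91 and 7.73 in untreated wild-type islets. All Irs2-/- arrays lay under the level of 5.27, and treated Irs2-/- islets were 8.00-fold lower than untreated wild-type islets (-3.00 ± 0.16, limma adjusted p = 0.000501). No source used here says whether its only probe set lies in the deleted stretch. Hormone transcripts that define islets were bright on every array, and whether probe sets this bright can show a change was not tested. Ins2, the insulin gene, read 14.72 and 14.75 in treated Irs2-/- islets, against 14.75 and 14.75 in untreated wild-type islets. Gcg, the glucagon gene of alpha cells, read 14.39 and 14.24 in treated Irs2-/- islets, against 14.38 and 14.33 in untreated wild-type islets. Iapp, the islet amyloid peptide co-secreted with insulin, read 14.51 and 14.50 in treated Irs2-/- islets, against 14.50 and 14.50 in untreated wild-type islets.

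After treatment, 47 genes differed between Irs2-/- and untreated wild-type islets, which is 0.352% of those tested. Of these, 26 rose (0.194%) and 21 fell (0.157%), and 34 differed by 2-fold or more (0.254%), 22 upward and 12 downward. In the fit of untreated Irs2-/- against the same untreated wild-type arrays, 2245 genes passed (16.8%), 1106 upward (8.27%) and 1139 downward (8.52%). At 2-fold or more, 625 genes passed (4.67%). These counts share the wild-type arrays and so are given side by side only. The standard deviation of the differences over all genes was 0.339 in treated and 0.542 in untreated Irs2-/- islets, and 191 and 787 genes lay 2-fold or more from the wild type, whether or not they passed. At an unadjusted p under 0.05, 2489 genes (18.6%) differed in treated Irs2-/- islets. The median of all genes lay at -0.03.

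The effect of tungstate was read within each genotype. In treated against untreated wild-type islets 0 genes passed limma's threshold, with 364 at an unadjusted p under 0.05 (2.72%). The direct test of treated against untreated Irs2-/- islets called 66 genes (0.494%), of which 3 rose (0.0224%) and 63 fell (0.471%). This count depended on single arrays too, with 29 without treated Irs2-/- replicate 2 and 137 without replicate 1, 32 and 265 without untreated Irs2-/- replicates 1 and 2, 16 when a treated wild-type array was dropped and 75 when an untreated one was. These omissions were chosen after seeing the data. Omitting a wild-type array left the differences between the Irs2-/- groups unchanged, and either array of a wild-type pair gave the same fit. Treated Irs2-/- against treated wild-type islets gave 137 genes (1.02%), with 85 higher (0.636%) and 52 lower (0.389%).

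The 47 genes rest on few arrays, and the treated Irs2-/- pair was uneven. Replicate 2 of treated Irs2-/- islets lay nearer to the wild type, at 2.7 on the first principal component (61.1% of the variance), against 12.89 for replicate 1. Untreated Irs2-/- arrays lay at 46.28 and 34.96, treated wild-type arrays at -25.49 and -29.85 and untreated wild-type arrays at -15.66 and -25.83. Without treated Irs2-/- replicate 2 the count was 585 (276 higher, 309 lower), and without replicate 1 it was 7. Leaving out untreated wild-type replicate 1 or 2 gave 4 or 12 calls, leaving out either treated wild-type array gave 9, and leaving out either untreated Irs2-/- array gave 22. Only Gast and Irs2 passed in all 8 omissions, Aass, Serpina7 and Vgf passed in 7, and 25 of the 47 passed in no omission other than that of treated Irs2-/- replicate 2. Leaving out an array outside the 2 groups compared left every difference unchanged and altered only the estimate of the spread. Either array of such a pair gave the same fit, so the 8 omissions are not 8 separate checks. The direction of all 47 was the same in every omission. That was fixed in advance, because the arrays of the 2 groups did not overlap for any of the 47. In the other settings the direction was the same wherever a gene was tested. This left 42 of the 47 with the 60th percentile filter and 44 with the mean of probe sets. With each array centred on its median the split was 27 higher and 60 lower, and with quantile normalization it was 33 higher and 15 lower. Nearest inside the threshold were Hspa12a (adjusted p = 0.0417 with limma), Grp (0.0464) and 2310022B05Rik (0.0478), and nearest outside was Cacna2d2, a calcium channel subunit gene, at -1.15 ± 0.17 (0.0517).

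**Figure D1:**
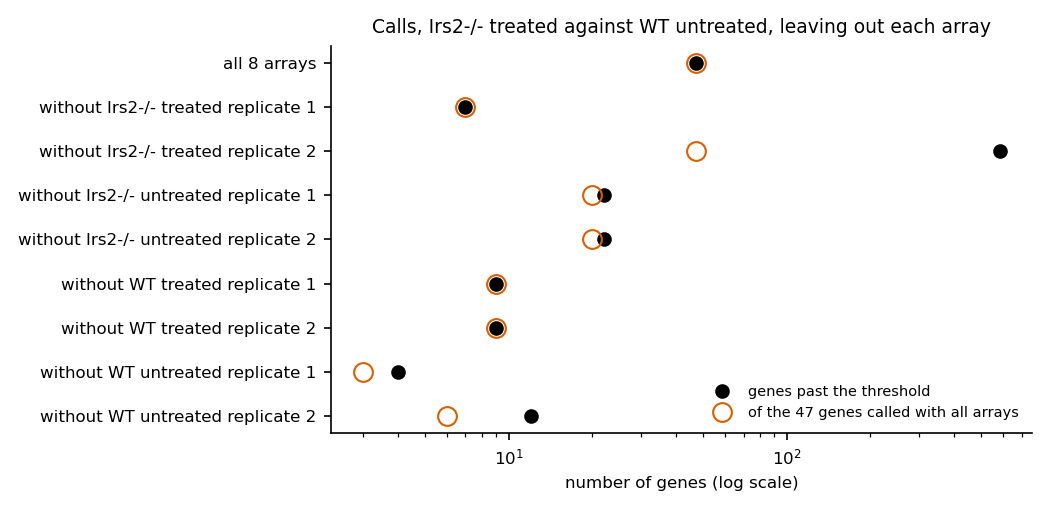
Number of genes past the threshold in treated Irs2-/- against untreated wild-type islets (horizontal, log scale) with all 8 arrays and with each array left out (rows). Filled points count all genes past the threshold and open circles those among the 47 genes called with all arrays; the count runs between 4 and 585 across the omissions.

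Genes for secreted neuropeptides and gut peptides made up the largest rises. Of the 12 tested precursors placed on this list, Tac1, Grp, Cartpt, Gast and Pdyn rose and 0 fell, against 0.194% and 0.157% of all genes. Sst, the peptide hormone gene of delta cells, was placed on another list and fell (-1.11 ± 0.13 from untreated wild type). The median of the 12 was 2.04. In untreated Irs2-/- islets 8 rose and 1 fell, against 8.27% and 8.52% of all genes, with a median of 2.42. These peptides are mostly made by neurons and gut endocrine cells, and several occur in islet nerves or in endocrine cells of developing or diabetic islets.

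Tac1, the precursor of substance P, read 10.13 and 9.58 in treated Irs2-/- islets, 8.01 and 9.52 in untreated Irs2-/- islets, 6.56 and 6.60 in treated wild-type islets and 6.19 and 5.42 in untreated wild-type islets. Both treated Irs2-/- arrays lay above every other array, and the difference from untreated wild type was the largest of the 47, at 4.05 ± 0.46 (16.6-fold, limma adjusted p = 0.021). That size rests on the brightest probe set. With the mean of all probe sets of the gene, Tac1 stood at 2.08, its lowest difference in any alternative. Tac1 was not alone in this. Among the called genes, the differences of Csn3, Hspa12a, Sel1l3, Mpp6 and Clock were also much smaller in some alternative. Cartpt, the precursor of the appetite-regulating CART peptide, read 9.91 and 8.56 in treated and 9.02 and 9.22 in untreated Irs2-/- islets, against 6.21 and 5.95 in treated and 6.09 and 5.44 in untreated wild-type islets. It was about as high in Irs2-/- islets with tungstate as without it (3.47 ± 0.40 and 3.36 ± 0.40 from untreated wild type). Grp, gastrin-releasing peptide, read 8.50 and 8.02 in treated and 7.68 and 8.36 in untreated Irs2-/- islets, against 5.72 and 4.60 in treated and 5.49 and 4.00 in untreated wild-type islets (3.51 ± 0.52 between treated Irs2-/- and untreated wild type, limma adjusted p = 0.0464). Pdyn, the precursor of the opioid dynorphins, read 10.66 and 9.82 in treated Irs2-/- islets, against 7.74 and 8.29 in untreated wild-type islets (2.23 ± 0.30, limma adjusted p = 0.0334). The 2 groups did not overlap for any of these genes, as holds for 50% of all genes tested.

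Gast, which encodes gastrin, a stomach hormone made in fetal but not in adult islets, had the smallest p of all rises. It read 7.85 and 7.76 in treated Irs2-/- islets and 10.00 and 10.26 in untreated Irs2-/- islets, against 4.60 and 4.72 in treated and 4.53 and 4.69 in untreated wild-type islets. All wild-type arrays lay under the level of 5.27 with tungstate or without it, while the Irs2-/- groups stood apart from the wild type and from each other. Treated Irs2-/- islets were 9.16-fold above untreated wild-type islets (3.20 ± 0.13, limma adjusted p = 0.000145) and also fell by 2.32 ± 0.13 against untreated Irs2-/- islets (limma adjusted p = 0.00174). Nmb, another peptide precursor, did not remain high, with 5.71 and 5.75 in treated Irs2-/- islets and 7.54 and 7.75 in untreated Irs2-/- islets, against 5.66 and 5.37 in untreated wild-type islets. It fell by 1.92 ± 0.14 with tungstate in Irs2-/- islets (limma adjusted p = 0.00369) and lay 0.21 ± 0.14 from untreated wild type (adjusted p = 0.445). Vip, vasoactive intestinal peptide, at 3.50 ± 0.68 (adjusted p = 0.0768), Gal, galanin, at 1.85 ± 0.46 (0.105), and Npy, neuropeptide Y, at 1.76 ± 0.59 (0.176) were high but did not pass. Without untreated wild-type replicate 1, which read 9.12 against 6.73 on its partner, Vip passed (4.69, limma adjusted p = 0.0283). Ucn3, urocortin 3, which adult beta cells secrete, was the lowest of the list at -1.09 ± 0.32 (adjusted p = 0.137).

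The promoters of the peptide genes Tac1, Cartpt and Gast, which rose, and of Sst, the peptide gene that fell, are shown because the genes moved in opposite directions. Each is the 250 bases before a transcript start given by RefSeq (GRCm38.p6), 5′ to 3′ on the strand of the gene. For Cartpt and Sst the window lies inside the span annotated for the gene (99898483 to 99910179 and 23889573 to 23891342), since that span includes a transcript that starts further upstream. Capitals mark matches, on either strand, to TGACG, the core of the cyclic AMP response element (CRE), whose full form is TGACGTCA, or to the E-box CACGTG. The core lies inside the full element.
Tac1 (chr6:7554811-7555060, + strand): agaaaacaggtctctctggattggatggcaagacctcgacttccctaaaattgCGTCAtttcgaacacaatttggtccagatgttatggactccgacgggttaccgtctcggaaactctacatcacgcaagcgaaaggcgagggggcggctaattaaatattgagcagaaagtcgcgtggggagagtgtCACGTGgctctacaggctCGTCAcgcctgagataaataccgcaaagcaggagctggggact
Cartpt (chr13:99900684-99900933, - strand): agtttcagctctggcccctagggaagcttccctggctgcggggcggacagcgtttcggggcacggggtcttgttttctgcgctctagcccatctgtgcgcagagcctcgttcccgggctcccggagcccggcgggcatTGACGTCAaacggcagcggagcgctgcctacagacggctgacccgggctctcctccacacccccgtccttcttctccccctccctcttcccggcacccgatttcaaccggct
Gast (chr11:100334157-100334406, + strand): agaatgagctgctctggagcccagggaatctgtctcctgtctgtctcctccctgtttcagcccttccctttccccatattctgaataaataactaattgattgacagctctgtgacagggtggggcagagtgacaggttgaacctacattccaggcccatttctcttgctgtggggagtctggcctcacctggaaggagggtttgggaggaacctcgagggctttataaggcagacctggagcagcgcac
Sst (chr16:23890845-23891094, - strand): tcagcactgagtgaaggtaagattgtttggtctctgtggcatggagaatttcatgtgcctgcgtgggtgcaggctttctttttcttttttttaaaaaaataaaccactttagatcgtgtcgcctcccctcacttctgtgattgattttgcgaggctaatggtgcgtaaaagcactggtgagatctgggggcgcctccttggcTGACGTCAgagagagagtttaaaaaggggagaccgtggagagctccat

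The full CRE was found in the windows of Cartpt and Sst, which moved in opposite directions, and in 1.55% of 32851 promoter windows. Promoter windows were matched for 35 of the 47 genes, 20 that rose and 15 that fell. The CRE core was found in 8 of the 35, 5 that rose (Aass, Cartpt, Gucy1b1, Man1a, Tac1) and 3 that fell (Hspa12a, Rab6a, Sst). By window this was 8 of 46 (17.4%), against 17.8% of all windows. The E-box was found in 4 of the 35 (Slc38a5 and Tac1, Dlgap1 and Irs2), by window in 4 of 46 (8.7%), against 6.02% of all windows. The Gast window held none of the motifs.

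**Figure D2:**
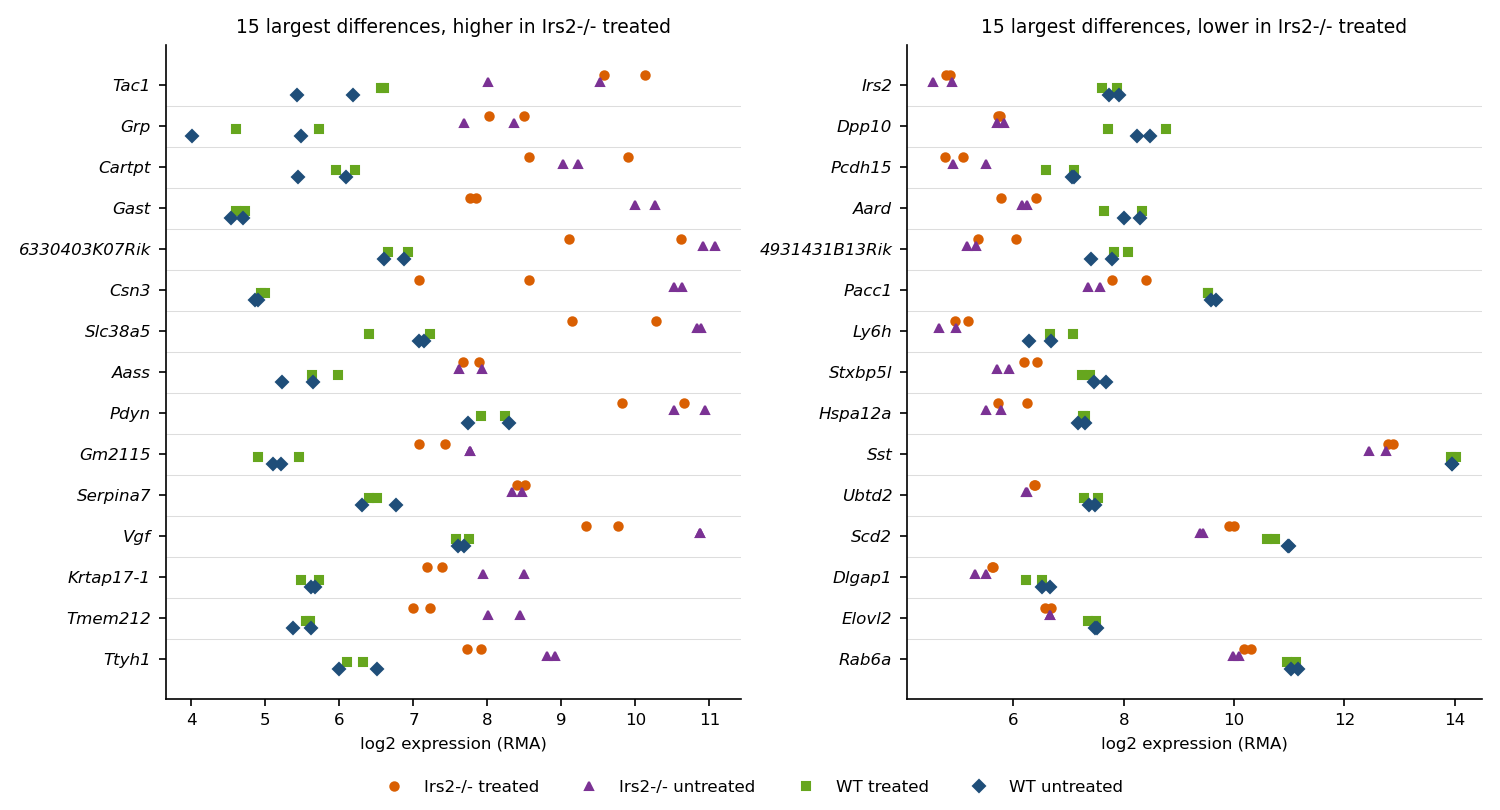
Log2 expression (horizontal) on each of the 8 arrays of the 15 genes with the largest differences in each direction among the 47 genes, by group. Points of the treated Irs2-/- arrays do not overlap those of the untreated wild-type arrays for any gene shown. The same holds for all 47 genes and for 50% of all genes tested. For Gast and Csn3 the points of the treated Irs2-/- arrays lie between untreated Irs2-/- and wild type.

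Other genes that rose encode secreted proteins, transporters and enzymes. Csn3, a milk casein regulated by prolactin in the mammary gland, read 8.56 and 7.08 in treated and 10.52 and 10.62 in untreated Irs2-/- islets, against 4.99 and 4.94 in treated and 4.86 and 4.91 in untreated wild-type islets. It was 7.67-fold above untreated wild type (2.94 ± 0.39, limma adjusted p = 0.029) and fell by 2.75 ± 0.39 against untreated Irs2-/- islets (limma adjusted p = 0.0351). The lowest difference of Csn3 from untreated wild type in any alternative was 1.4999. Of the 9 tested members of its prolactin and STAT5 list it alone passed, and the median of the list was -0.06. Vgf, a granule protein cut into neuropeptides, read 9.77 and 9.33 in treated and 10.87 and 10.87 in untreated Irs2-/- islets, against 7.60 and 7.68 in untreated wild-type islets (1.91 ± 0.16, limma adjusted p = 0.00648). It fell by 1.32 ± 0.16 against untreated Irs2-/- islets (limma adjusted p = 0.0185), and it was the only gene to pass of 21 tested granule and exocytosis genes, whose median was 0.07.

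Slc38a5, a glutamine transporter, read 10.28 and 9.15 in treated and 10.83 and 10.88 in untreated Irs2-/- islets, against 7.22 and 6.40 in treated and 7.07 and 7.14 in untreated wild-type islets (2.61 ± 0.37, limma adjusted p = 0.0378). Of 14 amino acid transporter genes it was the only one to pass, while the list's median lay at -0.21. In untreated Irs2-/- islets 4 of them rose and 5 fell, against 8.27% and 8.52% of all genes. Aass, the enzyme that starts lysine breakdown, read 7.67 and 7.88 in treated and 7.92 and 7.61 in untreated Irs2-/- islets, against 5.22 and 5.64 in untreated wild-type islets (2.35 ± 0.20, limma adjusted p = 0.00648). Serpina7, a carrier of thyroid hormone in plasma, read 8.51 and 8.41 in treated and 8.46 and 8.33 in untreated Irs2-/- islets, against 6.76 and 6.31 in untreated wild-type islets (1.92 ± 0.16, limma adjusted p = 0.00648). For Aass and Serpina7 the arrays of the treated and untreated Irs2-/- groups overlapped, with differences between them of 0.01 ± 0.20 and 0.06 ± 0.16.

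The genes 6330403K07Rik (3.12 ± 0.41), Gm2115 (2.10 ± 0.20), Krtap17-1 (1.64 ± 0.19), a keratin-associated protein gene, Tmem212 (1.62 ± 0.17) and Ttyh1 (1.57 ± 0.18) also rose, with limma adjusted p-values between 0.0124 (Gm2115) and 0.0284 (6330403K07Rik). The remaining 11 genes that rose did so by 0.76 to 1.41. The next examples were picked after their values were seen. Hdc makes histamine (0.76 ± 0.10), Gucy1b1 is a subunit of the nitric oxide receptor (0.78 ± 0.11), and Ackr1 is a chemokine-binding receptor of venules and red cells (1.02 ± 0.12).

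The 21 genes that fell included the hormone gene of delta cells. Sst, somatostatin, which restrains insulin and glucagon release, read 12.79 and 12.88 in treated and 12.44 and 12.75 in untreated Irs2-/- islets, against 14.02 and 13.93 in treated and 13.95 and 13.95 in untreated wild-type islets. The Irs2-/- arrays all lay below the wild-type arrays, and treated Irs2-/- islets were 2.17-fold lower than untreated wild-type islets (-1.11 ± 0.13, limma adjusted p = 0.0221). Hhex, the transcription factor that delta cells depend on, was lower too but did not pass (-0.69 ± 0.15, limma adjusted p = 0.0904). Ghrl, the ghrelin gene, read 8.55 and 8.25 in treated Irs2-/- islets, against 6.93 and 6.24 in untreated wild-type islets, and did not pass either (1.81 ± 0.38, adjusted p = 0.0851). Sst was the only gene to pass of 10 tested genes of the non-beta endocrine cells, and the list's median was -0.04.

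Dpp10, a subunit that tunes Kv4 potassium channels, read 5.76 and 5.72 in treated and 5.71 and 5.83 in untreated Irs2-/- islets, against 8.77 and 7.71 in treated and 8.47 and 8.24 in untreated wild-type islets (6.14-fold lower, -2.62 ± 0.29, limma adjusted p = 0.021). Pcdh15, a cadherin of hair-cell bundles in the ear, read 4.76 and 5.09 in treated Irs2-/- islets, against 7.06 and 7.09 in untreated wild-type islets (-2.15 ± 0.24, limma adjusted p = 0.021). Both were as low in treated as in untreated Irs2-/- islets to within 0.27. Pacc1, an acid-activated chloride channel gene, read 7.78 and 8.40 in treated and 7.34 and 7.57 in untreated Irs2-/- islets, against 9.58 and 9.68 in untreated wild-type islets (-1.54 ± 0.20, limma adjusted p = 0.0272). Stxbp5l, tomosyn-2, which holds back SNARE-driven secretion, read 6.20 and 6.42 in treated Irs2-/- islets, against 7.47 and 7.67 in untreated wild-type islets (-1.26 ± 0.14, limma adjusted p = 0.021). Rab6a, a GTPase of Golgi traffic, read 10.19 and 10.31 in treated Irs2-/- islets, against 11.15 and 11.03 in untreated wild-type islets (-0.85 ± 0.12, adjusted p = 0.0378). Aard (-2.06 ± 0.27), 4931431B13Rik (-1.90 ± 0.23), Ly6h (-1.42 ± 0.20), the Hsp70 relative Hspa12a (-1.25 ± 0.18), Ubtd2 (-1.04 ± 0.12) and the synaptic scaffold gene Dlgap1 (-0.97 ± 0.14) fell as well.

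Scd2 was the gene that fell among those of cholesterol and fatty acid synthesis. Scd2, which desaturates fatty acids, read 9.99 and 9.91 in treated and 9.38 and 9.43 in untreated Irs2-/- islets, against 10.75 and 10.59 in treated and 10.99 and 10.98 in untreated wild-type islets (-1.03 ± 0.11, limma adjusted p = 0.021). Elovl2, which lengthens polyunsaturated fatty acids and is not in the list, read 6.68 and 6.58 in treated Irs2-/- islets, against 7.52 and 7.48 in untreated wild-type islets (-0.88 ± 0.11, limma adjusted p = 0.0264). All 24 tested genes of cholesterol and fatty acid synthesis had negative differences (median -0.31), but only Scd2 passed. In untreated Irs2-/- islets 9 of the 24 fell (median -0.37), against 8.52% of all genes. Close to the threshold were the elongase gene Elovl6 (-0.84 ± 0.14, adjusted p = 0.061 with limma) and Msmo1 of cholesterol synthesis (-0.67 ± 0.15, 0.0916). The transcription factor genes Atf5, which acts in stress responses, and Clock, of the circadian clock, are named here after their values were seen. Atf5 read 9.26 and 9.44 in treated and 8.56 and 8.49 in untreated Irs2-/- islets, against 10.13 and 10.25 in untreated wild-type islets. It was thus lower than in wild type (-0.84 ± 0.12, limma adjusted p = 0.0378) and higher than in untreated Irs2-/- islets (0.82 ± 0.12, limma adjusted p = 0.0351). Clock read 8.10 and 8.07 in treated and 8.06 and 8.12 in untreated Irs2-/- islets, against 8.90 and 8.91 in untreated wild-type islets (-0.82 ± 0.11, limma adjusted p = 0.0284).

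The mean of treated Irs2-/- islets lay between the means of untreated Irs2-/- and untreated wild-type islets for 36 of the 47 genes, 20 that rose and 16 that fell. For the other 11 (Aard, Aass, Ackr1, Cartpt, Dpp10, Elovl2, Grp, Mpp6, Pcdh15, Serpina7, Tac1) it lay beyond the untreated Irs2-/- mean. No such count was made over all genes, so whether 36 of 47 differs from the share of all genes was not tested. The next count reuses the treated Irs2-/- arrays and the fit by which the 47 were picked. It is therefore not independent of that choice and stands beside the share of all genes only. The direct test of treated against untreated Irs2-/- islets passed for 6 of the 47, namely Gast, Csn3, Vgf, Tmem212 (-1.12 ± 0.17, limma adjusted p = 0.0439), A930009L07Rik (-0.81 ± 0.12, 0.0405) and Atf5, against 0.494% of all genes. Gast passed that test whichever array was left out, Vgf in 5 of the 8 omissions, Csn3 in 4, Tmem212 and Atf5 in 1 and A930009L07Rik in 0. Mpp6, a membrane scaffold gene, read 7.29 and 7.17 in treated and 7.88 and 7.72 in untreated Irs2-/- islets, against 8.09 and 7.96 in treated and 8.04 and 8.11 in untreated wild-type islets. It fell in treated Irs2-/- against untreated wild-type islets (-0.84 ± 0.12, limma adjusted p = 0.0378), with -0.27 ± 0.12 in untreated Irs2-/- islets (adjusted p = 0.15). The direct test between the Irs2-/- groups gave -0.57 ± 0.12 (adjusted p = 0.104) and did not pass. Among the 47 genes, 5 had an untreated wild-type mean and 3 a treated Irs2-/- mean under the level of 5.27, and no call of presence accompanies the deposited values. The genes were spread over the chromosomes, with at most 5 on any, and 4 lay on chromosome 8 with Irs2 itself among them. The other 3 on it (Dusp26, Banp and 2310022B05Rik) start at 31089527 or beyond.

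**Figure D3:**
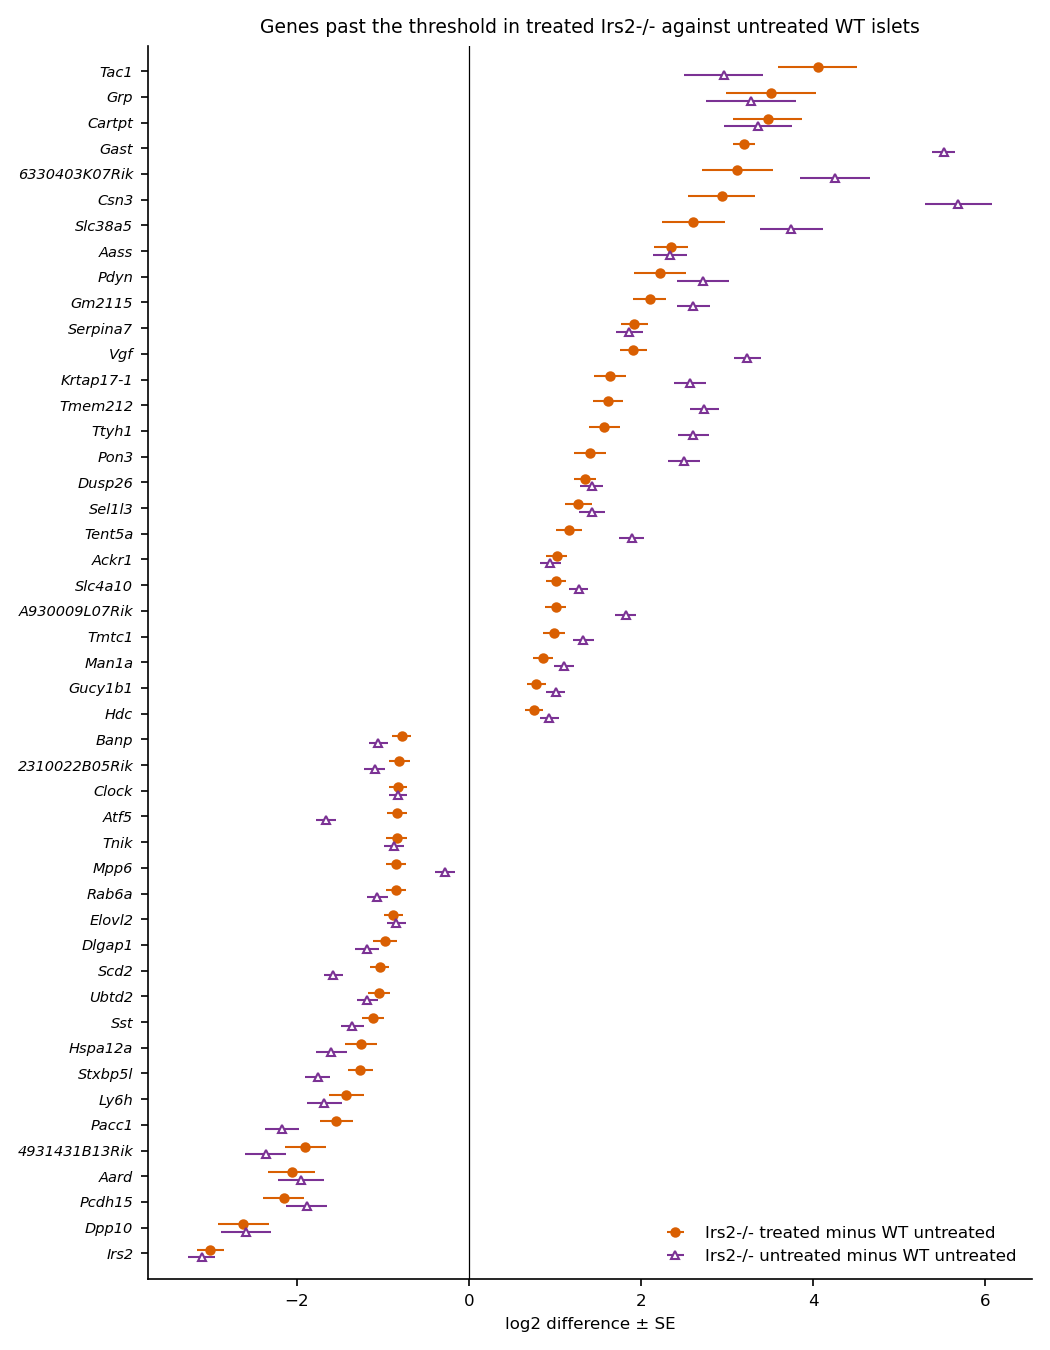
Log2 difference from untreated wild-type islets (horizontal, bars are ± SE from the fit) of the 47 genes past the threshold, in treated Irs2-/- islets (filled points) and in untreated Irs2-/- islets (open triangles). Both share the untreated wild-type arrays; Gast stood at 3.20 and 5.52, Irs2 at -3.00 and -3.10.

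Beta cell identity genes, which let beta cells sense glucose, make insulin and release it, had no member past the threshold. Of 24 tested, 0 rose and 0 fell in treated Irs2-/- islets, where 0.352% of all genes passed. At an unadjusted p under 0.05 stood 14 of the 24, against 18.6% of all genes, and 3 were lower at an adjusted p under 0.1. The median was -0.43 (-0.27 without treated Irs2-/- replicate 1), and only 4 differences were positive. In untreated Irs2-/- islets 13 fell and 1 rose, against 8.52% and 8.27% of all genes, with a median of -0.72. The direct test between the Irs2-/- groups called 0 of them, against 0.494% of all genes. Slc2a2, the glucose transporter GLUT2, read 11.17 and 12.43 in treated and 10.58 and 11.03 in untreated Irs2-/- islets, against 13.26 and 13.00 in treated and 13.24 and 12.97 in untreated wild-type islets. Its difference from untreated wild type was -1.31 ± 0.36 (limma adjusted p = 0.127). Replicate 2 lay close to the wild-type arrays and replicate 1 close to the untreated Irs2-/- arrays, with no overlap between treated Irs2-/- and wild type.

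The same unevenness ran through much of the list. Trpm5, a taste and calcium-activated channel, read 8.07 and 9.13 in treated Irs2-/- islets, against 10.10 and 10.03 in untreated wild-type islets (-1.47 ± 0.32, limma adjusted p = 0.0891). Ucn3 read 10.20 and 11.22 in treated Irs2-/- islets, against 11.82 and 11.78 in untreated wild-type islets, and the granule-docking gene Sytl4 read 9.66 and 10.77 in treated Irs2-/- islets, against 11.62 and 11.46 in untreated wild-type islets (-1.32 ± 0.31, adjusted p = 0.0956). Replicate 1 was the lower of the treated Irs2-/- pair for each of these genes. Nkx6-1, a transcription factor of mature beta cells, stood at -0.77 ± 0.19 (adjusted p = 0.107), Pdx1, a factor that controls insulin gene expression, at -0.39 ± 0.16 (0.248), and the incretin receptor genes Gipr at -0.81 ± 0.19 (0.0977) and Glp1r at -1.27 ± 0.34 (0.116). Without treated Irs2-/- replicate 2, 10 of the 24 fell (Slc2a2 then stood at -1.94, limma adjusted p = 0.00871), and without replicate 1, 0 did (Slc2a2 at -0.68, adjusted p = 0.274). Gad1, the GABA-making enzyme of beta cells, followed the same pattern at 7.05 and 9.24 in treated and 7.60 and 7.33 in untreated Irs2-/- islets, against 11.05 and 10.52 in untreated wild-type islets (-2.64 ± 0.58, limma adjusted p = 0.0904).

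Genes that mature beta cells keep silent, or that rise when they dedifferentiate, were mostly higher. Of 21 tested, Gast rose and 0 fell, 18 had positive differences, and the median was 0.55. In untreated Irs2-/- islets 11 rose, against 8.27% of all genes, with a median of 1.58. The median in treated Irs2-/- islets rested on single arrays. It was 0.15 and 0.79 without treated Irs2-/- replicates 1 and 2, and 0.92 and 0.14 without untreated wild-type replicates 1 and 2. Aldh1a3, a retinoic acid enzyme found in failing beta cells, read 8.73 and 7.21 in treated and 9.10 and 8.15 in untreated Irs2-/- islets, against 5.57 and 5.79 in untreated wild-type islets (2.29 ± 0.55, limma adjusted p = 0.0992). Cidea, a lipid droplet protein, read 8.01 and 5.86 in treated and 9.46 and 9.76 in untreated Irs2-/- islets, against 4.92 and 5.05 in untreated wild-type islets (1.95 ± 0.56, limma adjusted p = 0.132). For both genes replicate 2 of treated Irs2-/- islets lay nearer to the wild type, and without it both passed (3.05 for Aldh1a3, limma adjusted p = 0.0258, and 3.03 for Cidea, 0.00206). Hk2, a hexokinase that beta cells normally lack, read 5.39 and 5.33 in treated and 6.07 and 5.95 in untreated Irs2-/- islets, against 5.27 and 5.29 in untreated wild-type islets. It was within 0.08 ± 0.11 of the wild type after treatment (adjusted p = 0.734), and the direct test between the Irs2-/- groups did not pass (-0.65 ± 0.11, limma adjusted p = 0.0621).

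Macrophage markers were lower in treated than in untreated Irs2-/- islets and lay near the wild type. Of 19 tested macrophage markers, 0 passed against untreated wild type, where 0.352% of all genes did. At an unadjusted p under 0.05 stood 3, against 18.6% of all genes. The median was 0.18 (0.36 and 0.08 if untreated wild-type replicate 1 or 2 was dropped). In untreated Irs2-/- islets 18 rose, against 8.27% of all genes, with a median of 1.45. The direct test of treated against untreated Irs2-/- islets called 8 of the 19, all lower (0.471% of all genes fell there), namely Aif1, C1qb, C1qc, Cd68, Tyrobp, Fcer1g, Ctss and Mpeg1, with differences between -1.66 and -0.94. The number was 3 when a treated wild-type array was dropped, 11 when an untreated wild-type array was, and 4 to 8 when an Irs2-/- array was, and Aif1 and Mpeg1 did so in all 8 omissions. Aif1, an actin-binding protein of macrophages, read 5.91 and 6.01 in treated and 7.72 and 7.53 in untreated Irs2-/- islets, against 5.85 and 5.48 in treated and 5.79 and 5.83 in untreated wild-type islets. Treated Irs2-/- arrays lay just above all wild-type arrays and 1.66 ± 0.15 under the untreated Irs2-/- arrays (limma adjusted p = 0.0063). The mean of the list was 8.11 and 8.30 in treated and 9.51 and 9.48 in untreated Irs2-/- islets, against 7.98 and 7.81 in treated and 8.27 and 7.78 in untreated wild-type islets. Lyz2, lysozyme of macrophages, kept the highest difference of the list at 0.96 ± 0.45 and did not pass (adjusted p = 0.3).

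Chemokine genes and lymphocyte markers were lower in the same direct test, with calls among the chemokine genes. Cxcl9, a chemokine that draws T cells, read 4.57 and 5.41 in treated and 8.49 and 8.49 in untreated Irs2-/- islets, against 4.81 and 4.45 in treated and 4.97 and 4.29 in untreated wild-type islets. It fell by 3.50 ± 0.30 between the Irs2-/- groups (limma adjusted p = 0.00626), as did Ccl5, also a T cell chemokine, by 3.10 ± 0.36 (limma adjusted p = 0.0185). Cxcl9 passed in all 8 omissions and Ccl5 in 4. Of 16 chemokine and acute-phase genes 0 passed against untreated wild type (2 at an unadjusted p under 0.05) and the median was 0.02 (0.22 and -0.07 if untreated wild-type replicate 1 or 2 was dropped), against 7 that rose and a median of 0.94 in untreated Irs2-/- islets. Saa3, an acute-phase protein gene, read 6.44 and 7.55 in treated and 9.19 and 8.45 in untreated Irs2-/- islets, against 5.35 and 5.41 in untreated wild-type islets, and did not pass (1.62 ± 0.37, limma adjusted p = 0.0936). Of 13 lymphocyte markers 0 passed (median 0.20, with 4 higher and a median of 2.09 in untreated Irs2-/- islets), and the direct test between the Irs2-/- groups called 0 of them. In that test 12 of the 13 were lower, the median was -1.74, and 8 had an unadjusted p under 0.05, against 13.3% of all genes. Untreated wild-type replicate 1 carried more lymphocyte RNA than its partner, with a list mean of 7.00 against 5.52. The median of the lymphocyte list was 0.59 without that array and -0.29 without its partner, so its sign rested on single arrays. Of 16 interferon response genes 0 passed (1 at an unadjusted p under 0.05, median 0.20, or 0.41 and -0.06 if untreated wild-type replicate 1 or 2 was dropped), against 7 that rose in untreated Irs2-/- islets (median 0.82). Of all genes, 0.352% passed against untreated wild type, 18.6% had an unadjusted p under 0.05 there, and 8.27% rose in untreated Irs2-/- islets.

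**Figure D4:**
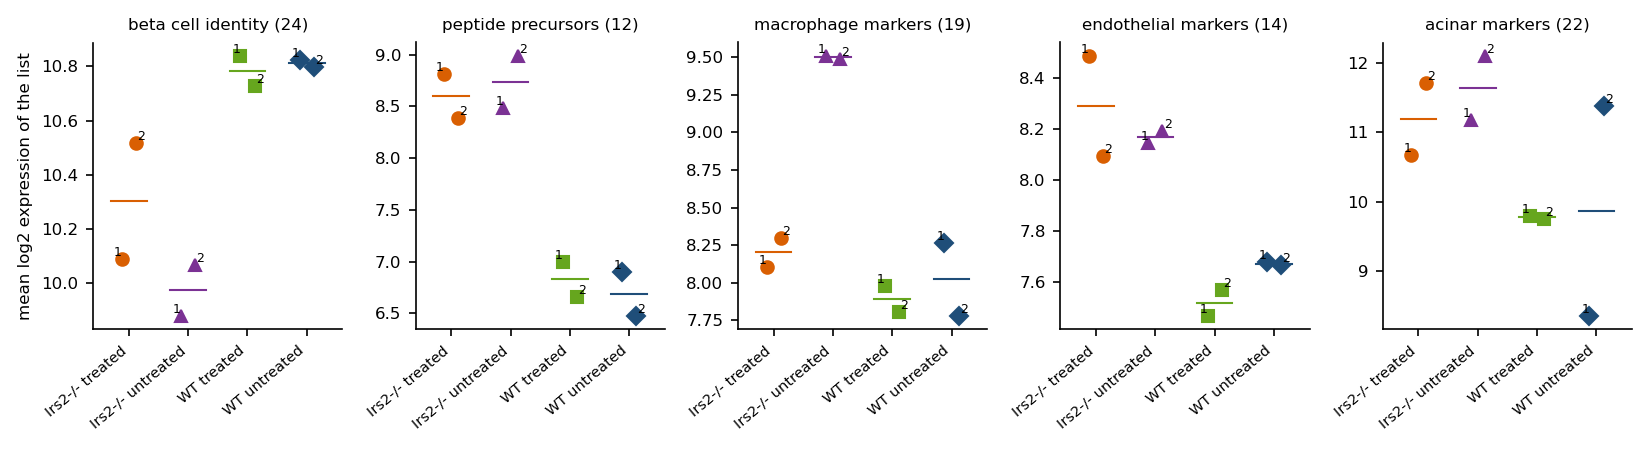
Mean log2 expression of 5 gene lists (vertical, number of tested genes in parentheses) on each array, by group, with the group mean as a line and replicate numbers beside the points; each panel has its own vertical range. Macrophage markers in treated Irs2-/- islets stand at 8.11 and 8.30, against 9.51 and 9.48 in untreated Irs2-/- islets, while acinar markers in untreated wild-type islets stand at 8.35 and 11.38.

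Exocrine and vascular markers were higher in treated Irs2-/- islets without passing. All 22 acinar markers, digestive enzyme genes and their regulators, had positive differences, with a median of 1.36 (1.58 in untreated Irs2-/- islets). Among these markers 0 passed, where 0.352% of all genes did, and 1 had an unadjusted p under 0.05, against 18.6% of all genes. Their mean level was 10.67 and 11.70 in treated and 11.18 and 12.10 in untreated Irs2-/- islets, against 9.79 and 9.76 in treated and 8.35 and 11.38 in untreated wild-type islets. The untreated wild-type arrays thus spanned nearly the whole range of the study, and without replicate 1 the median was -0.27, while without replicate 2 it was 3.0 and 4 markers rose. With the acinar level of each array as a covariate the count of calls was 64 in place of 47, with 31 of the 47 among them. The 5 tested Reg genes, secreted proteins of acinar cells under stress, had a median of 2.53 with 0 past the threshold (4 at an unadjusted p under 0.05). Dropping untreated wild-type replicate 1 gave a median of 1.01, and dropping replicate 2 gave 4.08 and 1 called gene. Reg3b read 11.62 and 10.58 in treated and 8.78 and 11.39 in untreated Irs2-/- islets, against 5.62 and 6.12 in treated and 3.86 and 8.62 in untreated wild-type islets (4.86 ± 1.40, limma adjusted p = 0.136). Reg3a read 9.03 and 6.65 in treated and 5.51 and 6.68 in untreated Irs2-/- islets, against 4.99 and 5.63 in untreated wild-type islets (2.53 ± 0.70, adjusted p = 0.126). The treated Irs2-/- arrays lay above the untreated wild-type arrays for both genes, and the wild-type arrays lay 4.76 apart for Reg3b.

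Endothelial markers all had positive differences in the 14 tested, with a median of 0.53 (0.33 without treated Irs2-/- replicate 1) and 11 at an unadjusted p under 0.05, against 18.6% of all genes. At the adjusted threshold 0 passed, against 0.352% of all genes. In untreated Irs2-/- islets 3 rose (median 0.39), against 8.27% of all genes. Vwf, the clotting factor of vessel walls, read 7.41 and 6.45 in treated and 5.93 and 6.52 in untreated Irs2-/- islets, against 4.43 and 4.42 in treated and 5.28 and 4.81 in untreated wild-type islets (1.88 ± 0.32, limma adjusted p = 0.061). Plvap, of the diaphragms in fenestrated capillaries, stood at 0.67 ± 0.14 (limma adjusted p = 0.0839). Both genes lay above the wild-type arrays in all Irs2-/- arrays, and treated Irs2-/- against treated wild-type islets called 3 of the 14 endothelial markers, all higher (0.636% of all genes rose there). Without treated Irs2-/- replicate 2, 5 of the 14 markers rose against untreated wild type. The stromal list had 0 of 20 past the threshold and a median of 0.45, which was 0.19 without treated Irs2-/- replicate 1 and 0.80 and 0.07 without untreated wild-type replicates 1 and 2. Its lowest p belonged to a collagen gene that was lower, Col6a3 (-1.25 ± 0.23, limma adjusted p = 0.0651), followed by the pericyte gene Rgs5 (0.67 ± 0.13, 0.0772). Of 9 duct markers 0 passed (median 0.28), of 3 Schwann cell markers 0 passed, and no red blood cell marker was bright enough to be tested.

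Among genes of insulin and growth factor signalling, Irs2 was the only one called. Of 22 tested, Irs2 fell and 0 rose, 4 had positive differences, 6 had an unadjusted p under 0.05 and the median was -0.15. Insr, the insulin receptor gene, stood at -0.53 ± 0.13 (limma adjusted p = 0.107), Irs1, the other main substrate of the receptor, at -0.46 ± 0.20 (0.27), and Igf1 at 0.88 ± 0.27 (0.148). Feedback genes of the ERK pathway had 0 of 13 past the threshold (5 at an unadjusted p under 0.05), 12 positive differences and a median of 0.30 (0.18 without treated Irs2-/- replicate 1), against 4 that rose and a median of 0.52 in untreated Irs2-/- islets. Dusp6, a phosphatase that switches ERK off, read 9.78 and 9.20 in treated and 10.50 and 10.59 in untreated Irs2-/- islets, against 8.02 and 7.70 in treated and 8.34 and 8.26 in untreated wild-type islets (1.19 ± 0.20, limma adjusted p = 0.0607). Its treated Irs2-/- arrays lay between untreated Irs2-/- and wild type, and it passed with the variance trend, the replicate block, quantile normalization or without treated Irs2-/- replicate 2. Ptger3, a prostaglandin E2 receptor gene, read 5.58 and 6.98 in treated and 9.50 and 9.17 in untreated Irs2-/- islets, against 5.28 and 5.02 in untreated wild-type islets. It fell by 3.06 ± 0.39 between the Irs2-/- groups (limma adjusted p = 0.0275) and did not pass against untreated wild type (1.13 ± 0.39, adjusted p = 0.185). The fall of Ptger3 passed in 5 of the 8 omissions.

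Of 30 genes of the unfolded protein response, which handles secretory stress, 0 passed, where 0.352% of all genes did, 8 had an unadjusted p under 0.05 and the median was 0.09 (-0.01 and 0.24 without treated Irs2-/- replicates 1 and 2), against 5 higher and 1 lower in untreated Irs2-/- islets (median 0.20). Creld2, an endoplasmic reticulum chaperone-like gene, read 11.79 and 11.36 in treated and 11.76 and 11.68 in untreated Irs2-/- islets, against 10.13 and 10.68 in untreated wild-type islets (1.17 ± 0.23, limma adjusted p = 0.0797). Derl3, of the degradation of misfolded proteins, stood at 0.94 ± 0.18 (limma adjusted p = 0.076). Edem1, of the same pathway, read 10.44 and 10.06 in treated and 11.21 and 10.89 in untreated Irs2-/- islets, against 9.43 and 9.68 in untreated wild-type islets (0.69 ± 0.17, adjusted p = 0.105). For Creld2 the treated and untreated Irs2-/- arrays overlapped, while for Edem1 the treated arrays lay below the untreated.

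The lists of apoptosis (26 tested), antioxidant (24), metallothionein and zinc (15), glycolysis (21), respiratory chain (37), ribosomal protein (22), fatty acid oxidation (16), lipid droplet (10), GABA and serotonin (9), prostaglandin (8), ion channel (19), immediate early (18) and cell cycle genes (31) had 0 members past limma's threshold, where 0.352% of all genes passed. At an unadjusted p under 0.05, which 18.6% of all genes reached, stood 10 of the 19 ion channel genes, 4 of the 9 GABA and serotonin genes, 4 of the 10 lipid droplet genes and 0 of the 18 immediate early genes. Cell cycle genes had a median of -0.15 (-0.04 and -0.30 without treated Irs2-/- replicates 1 and 2), against 0.50 in untreated Irs2-/- islets. There 3 rose and 1 fell, against 8.27% and 8.52% of all genes. Ccnd2, the main D-type cyclin of beta cells, read 12.64 and 12.66 in treated and 12.24 and 12.06 in untreated Irs2-/- islets, against 13.06 and 12.97 in untreated wild-type islets (-0.37 ± 0.11, limma adjusted p = 0.152). Mt1, a metal-binding metallothionein, read 11.96 and 12.03 in treated and 11.36 and 11.44 in untreated Irs2-/- islets, against 12.96 and 12.43 in untreated wild-type islets (-0.70 ± 0.20, adjusted p = 0.137). Both genes lay between untreated Irs2-/- and wild-type islets after treatment. Cox6a2, a subunit of respiratory complex IV, had the widest gap of the respiratory list, with 7.20 and 9.47 in treated and 7.00 and 8.12 in untreated Irs2-/- islets, against 10.63 and 10.75 in untreated wild-type islets (-2.36 ± 0.65, limma adjusted p = 0.124). Treated Irs2-/- replicate 2 again lay nearer to the wild type.

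**Figure D5:**
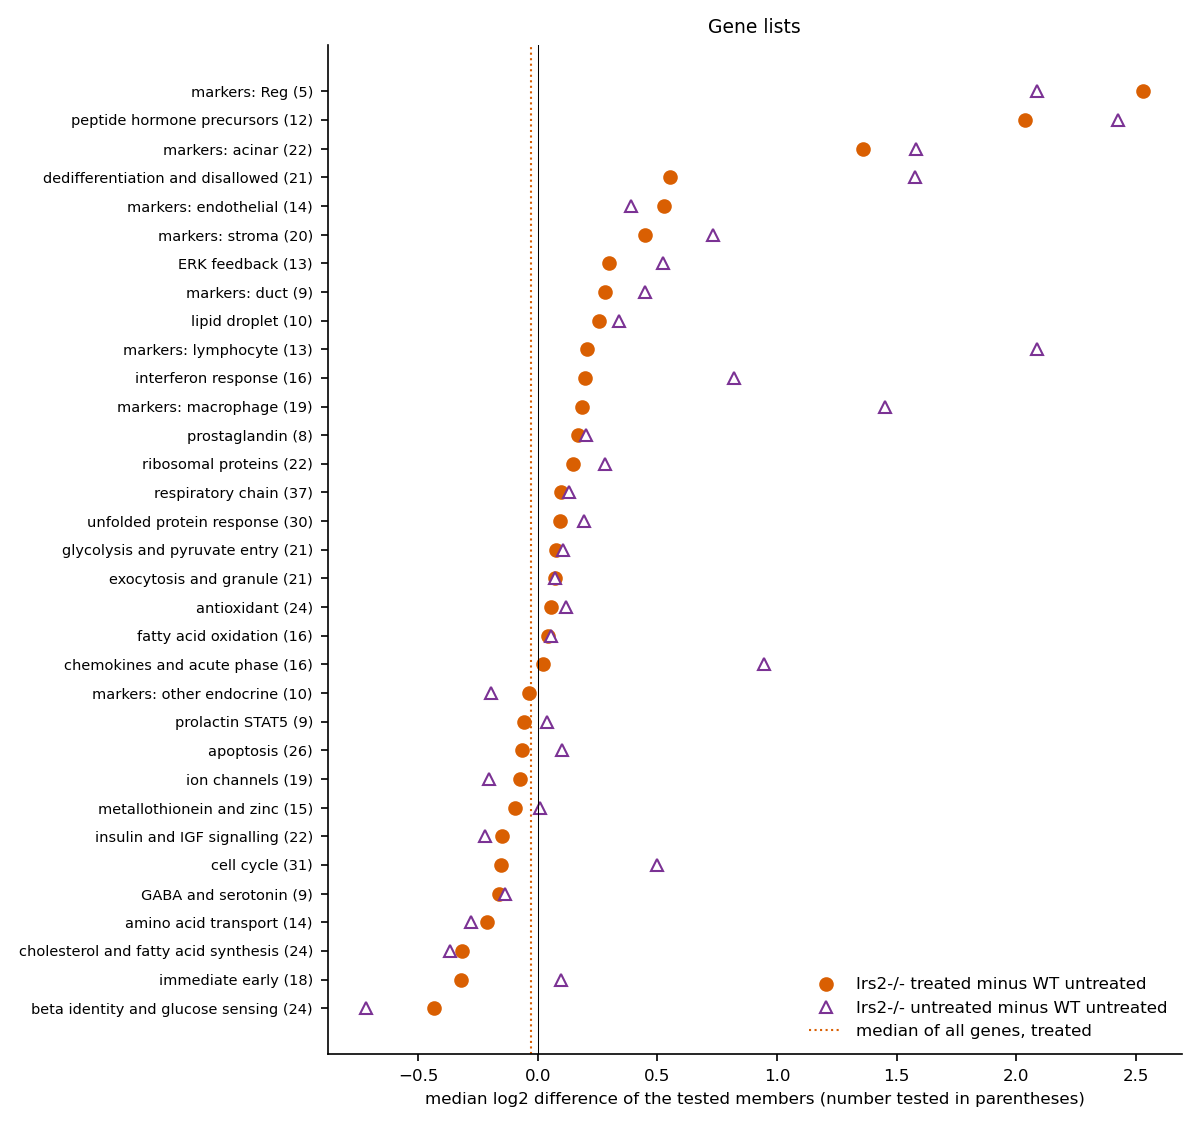
Median log2 difference from untreated wild-type islets of the tested members of each gene list with at least 5 (number in parentheses), in treated Irs2-/- islets (filled points) and untreated Irs2-/- islets (open triangles), which share the wild-type arrays. The dotted line is the median of all genes in treated Irs2-/- islets, at -0.03; macrophage markers stand at 0.18 and 1.45, peptide precursors at 2.04 and 2.42.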

How the data were processed

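The deposited log2 values of 45037 probe sets (and 64 controls) on 8 arrays were made by the authors by RMA, with affy under R 2.7.0, per the submitters' processing notes. No source used here gives batches or scan dates. The platform annotation assigns exactly 1 gene to 34945 probe sets, several to 932 and no gene to 9160, and 34741 were found in RefSeq (GRCm38.p6) by gene number. The brightest probe set over all 8 arrays stood for each of 18193 genes. Genes with a mean below the 40th percentile of probe sets (log2 5.27) were left out (4824), which left 13369. Ins1 and Mafa have no probe set that names a single gene.

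Group means of the 4 groups were fitted with limma 3.58.1 (R 4.3.3, data.table in version 1.17.8), empirical Bayes moderation added 3.89 prior to 4 residual degrees of freedom, and Benjamini-Hochberg adjustment was done contrast by contrast. The members, the 35 gene lists and the tests were chosen with earlier results of these data known, so lists are described by counts and medians only, and some genes are in several lists. The rule for naming genes took Irs2, the up to 15 largest differences in each direction, the up to 4 genes with the smallest p in each list, and 33 fixed genes. It took 162 genes, of which not all are printed, and which to print was a further choice. Iapp, Nmb, Vip, Gal, Npy, Irs1, Hk2, Ccl5, Cacna2d2, Mfap3l, the macrophage genes called in the direct test and the remaining called genes were named after their values were seen. The alternatives covered the filter, moderation, choice of arrays, scaling, array weights, a block for the replicate number, choice of probe sets, the acinar level as a covariate, thresholds and the omission of each array. The omissions for treated against untreated Irs2-/- islets were added after seeing the data. The fit was also tested on simulated data, in which 200 of the 13369 genes were changed. It recovered 72.4% at a log2 change of 1 and 98% at 2, with 4.73% and 5.08% of calls false. These rates describe the simulated data only. Whether they hold for the real arrays, whose pairs were uneven, was not tested.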

Additional observations from a re-analysis of the deposited data

Results flagged for a closer look

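The response to tungstate differed between genotypes for 3 genes, among them the peptide genes Gast and Nmb. For Gast the tungstate difference in Irs2-/- islets minus that in wild-type islets was -2.37 ± 0.19 (limma interaction, adjusted p = 0.021), with -2.32 ± 0.13 in Irs2-/- islets and 0.05 ± 0.13 in wild-type islets. For Nmb it was -2.09 ± 0.20 (limma interaction, adjusted p = 0.0263), with -1.92 ± 0.14 in Irs2-/- islets and 0.17 ± 0.14 in wild-type islets. For Mfap3l, which was named after its values were seen, it was -2.01 ± 0.18 (limma interaction, adjusted p = 0.0263), with -1.94 ± 0.13 in Irs2-/- islets and 0.06 ± 0.13 in wild-type islets. The interaction called 3 of 13369 genes (0.0224%), and all 8 arrays entered it. The wild-type arrays read between 4.53 and 4.72 for Gast and between 5.37 and 5.74 for Nmb with or without tungstate.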

How the results depend on the processing

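Against the 47 calls (26 higher, 21 lower), a variance trend with robust moderation gave 142 (54 and 88), only the 4 arrays compared gave 8 (5 and 3), and centring each array on its median gave 87 (27 and 60) while moving the median of all genes to -0.08. An adjusted p under 0.1 gave 463 (156 and 307), and a change of at least 2-fold kept 34 with 12 lower. The acinar level as a covariate raised the genes higher to 46, and array weights left 11 lower. The causes of these shifts were not tested. The fit of 4 arrays also held fewer samples, and the changed thresholds alter the counts by construction. The counts stayed within 1.5 times with no filter (48), the 60th percentile (53), quantile normalization (48) and the mean of probe sets (48). Leaving out an array gave 4 to 585 calls, 3 to 276 higher and 1 to 309 lower. No called gene changed direction in an alternative that tested it, with 42 of the 47 tested under the 60th percentile filter and 44 with the mean of probe sets. For the omissions that was fixed in advance, because the arrays of the 2 groups did not overlap for any of the 47. The replicate number as a block gave 62 calls (37 and 25), with 45 of the 47 among them. No label ties same-numbered arrays to a shared animal or day, and differences between replicates 1 and 2 correlated across genes at 0.07 between treated Irs2-/- and untreated wild-type islets. Over all pairs of groups that correlation ran between -0.07 and 0.42, over 0.1 for some pairs only, so the numbers were not taken as pairs. Treated against untreated Irs2-/- islets gave 16 to 265 calls and 3 to 11 lower macrophage markers when an array was left out, against 66 and 8 with all arrays, alternatives that were added after seeing the data. Of 59 genes followed through the alternatives that did not pass against untreated wild type, 26 passed in at least 1. Most of these passed without treated Irs2-/- replicate 2, the array nearer to the wild type, and most in no other alternative. Glp1r passed instead with the acinar covariate (-1.71, limma adjusted p = 0.0434). The deposited values carry no background signal, so how far genes under log2 5.27 lay above background was not tested.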
